A study of Arabidopsis thaliana with 6 samples.

Results

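Of the 341 genes that the authors' table classed as ncRNA outside the organelles, 135 had at least 50 reads summed over the 6 libraries, and these 135 genes are described here out of 23640 features in all. The members were therefore chosen by their own read counts. Where these genes sit relative to other genes was read from the RefSeq annotation of TAIR10.1. It places 68 of them on the strand opposite to an overlapping gene and 43 where no other gene overlaps. A further 5 are precursors of trans-acting small interfering RNAs (ta-siRNAs), 2 carry microRNA genes on the same strand, and 4 have another kind of overlap. The remaining 13 are small-RNA loci: 10 contain annotated small nucleolar RNA (snoRNA) genes on the same strand, 2 resemble the U3 snoRNA in sequence, and 1 resembles the RNA of the signal recognition particle. This group of 13 was put together after its values had been seen.

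RNA came from whole Arabidopsis thaliana seedlings of the Col ecotype, 14 days old and raised in vitro. The groups were 3 wild-type libraries and 3 libraries of plants with the atrx-1 allele, a mutation of the chromatin remodeler ATRX that the series title calls loss-of-function. Ribosomal RNA was depleted and no poly(A) selection is named, so that RNAs without a poly(A) tail could be counted. No label says that the replicates were separate cultures, so the spread behind each p-value may be technical only. In whole seedlings fewer cells of a type and less RNA per cell cannot be told apart.

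Plant non-coding RNAs fall into families that are made and used differently. The signal recognition particle binds ribosomes that are making secreted proteins, and its RNA, called 7SL, is transcribed by RNA polymerase III. snoRNAs guide the modification and cleavage of ribosomal RNA, and in plants many are released from longer transcripts that carry several of them. ta-siRNA precursors (TAS transcripts) are cut by a microRNA-guided Argonaute, copied into double-stranded RNA and diced into small RNAs that silence other genes. Natural antisense transcripts run across a gene on the other strand.

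Library totals ranged from 936243 counts in wild-type library 2 to 14001726 in mutant library 1, and nuclear counts without ribosomal RNA features ranged from 371706 to 5635309. ATRX itself had 16, 5 and 18 reads in the wild-type libraries and 18, 3 and 6 in the mutant libraries, with every mutant library lower relative to its size (log2 fold change -2.09 ± 0.38, SE; edgeR adjusted p = 0.0536). Green tissue markers were abundant, at 6970 to 13800 CPM in sum (CPM, counts scaled to a common library size). Root markers summed to 1780, 1190 and 1430 CPM against 1050, 1100 and 1290 CPM. All 3 had lower values in the mutant, 1 of them at an unadjusted p under 0.05. Flower markers summed to at most 2.19 CPM, with AP3 at 0 in every library. Seed markers summed to 124, 76.5 and 37.1 CPM in wild-type libraries 1, 2 and 3 and to 35.8, 38.9 and 14.7 CPM in those of atrx-1, and all 3 had lower values in the mutant at an unadjusted p under 0.05. Wild-type library 1 was thus lowest in green and highest in root and seed markers, and it also had the highest share of counts in small-RNA loci. The part of the marker differences in the results on non-coding RNA was not tested.

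Most reads of the 135 genes came from AT1G15405, which took 92.9% of them. It lies at chr1:5297875-5298166 on the minus strand, is 292 nt long and is annotated only as an ncRNA. Its sequence matched AT7SL-1 (AT4G02970), the gene annotated for the signal recognition particle RNA, with 81.4% identity over 290 aligned bases. The match is on the strand opposite to the AT7SL-1 gene model, which is longer than the matched stretch. The sequences are shown because they identify the most abundant non-coding RNA of these libraries, with bases that differ or have no partner in capitals. They were read from the RefSeq genome TAIR10.1, and the AT7SL-1 segment is chr4:1318878-1319166 on the minus strand.
AT1G15405: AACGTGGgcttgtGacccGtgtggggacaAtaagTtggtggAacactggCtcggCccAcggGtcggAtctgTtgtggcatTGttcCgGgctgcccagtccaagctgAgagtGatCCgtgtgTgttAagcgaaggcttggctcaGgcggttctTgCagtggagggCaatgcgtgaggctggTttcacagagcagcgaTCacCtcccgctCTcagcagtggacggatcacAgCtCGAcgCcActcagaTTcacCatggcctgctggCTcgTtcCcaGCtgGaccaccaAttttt
AT7SL-1 segment: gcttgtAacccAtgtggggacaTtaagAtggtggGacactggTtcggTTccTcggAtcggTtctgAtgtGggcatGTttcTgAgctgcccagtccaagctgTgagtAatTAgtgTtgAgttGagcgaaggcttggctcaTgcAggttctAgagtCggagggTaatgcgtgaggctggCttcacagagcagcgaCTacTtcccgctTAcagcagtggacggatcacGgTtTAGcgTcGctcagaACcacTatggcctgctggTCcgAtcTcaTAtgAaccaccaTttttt

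The genome held 7 further stretches like AT1G15405. The closest, chr5:14295040-14295330 on the minus strand, was 92.8% identical over 291 bases and had no row in the table. AT2G31141, classed as protein-coding, contained a stretch 81.8% identical over 296 bases and had 56023 reads. The AT7SL-1 row had 48 reads. The sources used here do not say how reads with several matches were treated, so the split of reads between these copies is uncertain.

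Wild-type libraries 1, 2 and 3 held 242213, 8813 and 139054 reads of AT1G15405. Mutant libraries 1, 2 and 3 held 209298, 36834 and 44401. That was 16.0%, 2.37% and 10.2% of nuclear counts in the wild type and 3.71%, 2.31% and 3.67% in the mutant. Wild-type libraries 1 and 3 stood well above the other 4, while wild-type library 2 lay among the mutant libraries. The Wilson 95% interval of the share in library 2 was 2.32% to 2.42%, and such intervals cover counting error only. Wild-type libraries averaged 9.54% ± 6.86 and atrx-1 libraries 3.23% ± 0.796 (SD, n = 3). That difference did not exceed the libraries' own spread (p = 0.3 by an exact permutation test, two-sided, where 0.1 is the smallest p that 3 against 3 allows). The log2 fold change was -1.77 ± 0.53 (SE, edgeR adjusted p = 0.108). It was -2.27 without wild-type library 2 (edgeR adjusted p = 0.0305) and -1.14 without wild-type library 1 (edgeR adjusted p = 0.138). AT2G31141 had the same order of wild-type libraries, with 6330, 928 and 2940 CPM against 1300, 713 and 1010 CPM in the mutant, and a log2 fold change of -1.76 ± 0.51 (SE, edgeR adjusted p = 0.0982).

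**Figure D1:**
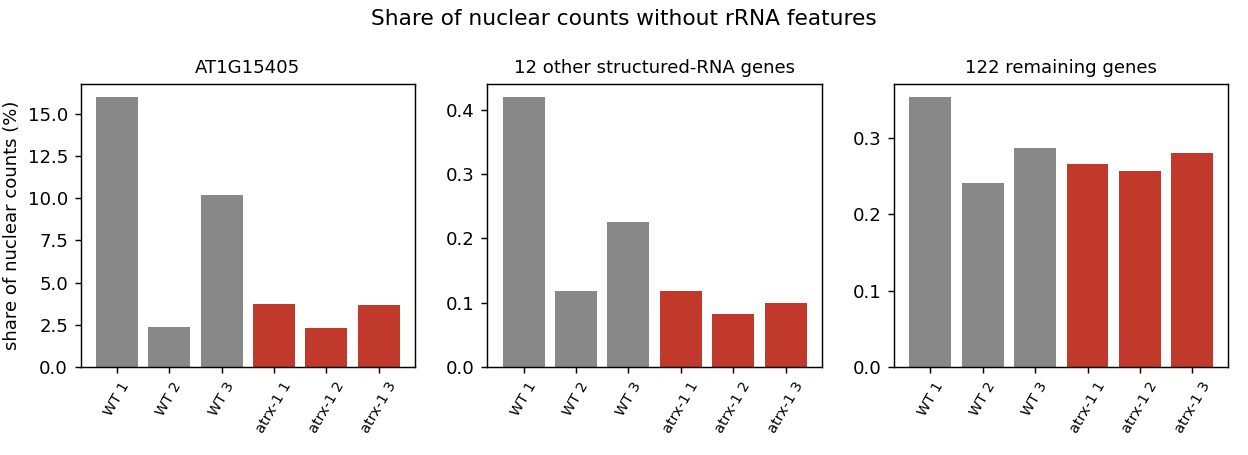
Share of nuclear counts (%) in each of the 6 libraries, in bars that start at 0, for AT1G15405, for the other 12 small-RNA loci and for the remaining 122 genes; grey bars are wild type and red bars atrx-1. Wild-type library 1 is highest in all 3 panels, and in the last panel all libraries lie between 0.241% and 0.353%.

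The sum of the other 12 small-RNA loci, of which AT5G06165 was the most abundant, followed the same division among libraries. Together they took 0.42%, 0.118% and 0.225% of nuclear counts in wild-type libraries 1, 2 and 3 and 0.119%, 0.0823% and 0.1% in the mutant libraries (p = 0.2, exact permutation test). In that sum, too, wild-type library 2 lay at the level of the mutant. Of the 11 tested small-RNA loci, AT1G15405 included, 8 were at least 2-fold higher in wild-type library 1 than in library 2. Single loci differed. In wild-type libraries 1, 2 and 3 AT1G18745 stood at 12.6, 10.9 and 10.8 CPM and AT1G20691 at 6.62, 5.46 and 6.19 CPM. AT1G16635 stood at 3.61, 4.37 and 7.49 CPM and AT5G15022, which was not tested, at 1.81, 12.0 and 3.91 CPM. Annotated snRNA and snoRNA features, which are not members, took 2.51%, 0.796% and 1.27% in the wild type and 0.609%, 0.27% and 0.438% in the mutant. The remaining 122 genes averaged 0.294% ± 0.0566 over wild-type and 0.267% ± 0.0121 over atrx-1 libraries (SD, n = 3), a difference smaller than the wild-type spread (p = 0.6, exact permutation test).

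In the test over all features, 0 members passed the threshold of an edgeR adjusted p of 0.05 in either direction. Of the 135 genes, 93 passed the filter on low counts and were tested along with the other features that passed. Over all 13819 features 0.116% were called lower and 0.0% higher. At an unadjusted p under 0.05, 6 members had higher and 27 had lower values, where 8.64% and 10.9% of all features did so. The mutant libraries were all lower than the wild type in 18 of the 93 and all higher in 10, against 11.4% and 12.2% of all features. The median log2 fold change of the 93 was -0.29, and of all features 0.01. The filter can favour genes that are high in 1 group: AT3G05932 and AT5G03285 reached it in all mutant and no wild-type libraries, and 0 members the other way. Others, among them AT1G26208, AT2G15292 and AT1G44125, reached it in all mutant but not all wild-type libraries. Without the mutant libraries these would not have been tested.

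Other settings moved the calls. DESeq2 gave an adjusted p to 26 members and called 4 of them lower, AT5G06165, AT2G46192, AT4G38932 and AT2G43375, where it called 3.9% of all features with an adjusted p. Without wild-type library 2 edgeR called 7 members lower, AT1G15405, AT5G06165, AT2G46192, AT3G61198, AT4G00975, AT3G59068 and AT5G18255, where it called 0.715% of all features lower. Without wild-type library 1 AT2G46192 was the only member called, where 1.45% of all features were called lower. Without a filter on low counts it called 14 of the 135 members lower, against 1.74% of all features. An adjusted p was given to 31 members by the authors' deposited table, and the only member under 0.05 was AT4G13495, where 7.06% of features with an adjusted p were under it. That table had no value for AT1G15405. For AT5G06165, AT2G46192, AT4G38932 and AT2G43375 it gave log2 fold changes of -0.51, -0.745, -0.546 and -0.669. The adjusted p-values of the authors' test were 0.36, 0.0658, 0.155 and 0.123.

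The 2 U3-like genes are AT3G61198 (chr3:22655884-22656599, minus strand) and AT4G00975 (chr4:421973-423258, plus strand). U3 is the snoRNA needed for the early cleavages of ribosomal RNA. The first 219 bases of AT3G61198 were 93.6% identical to U3D (AT5G54075), and AT4G00975 was 89.3% identical to U3D over 233 aligned bases. The AT3G61198 stretch is chr3:22656381-22656599 and the U3D stretch chr5:21945372-21945590, both on the minus strand of TAIR10.1. They are shown because neither gene is labelled as a snoRNA in the table, and capitals mark the bases that differ.
AT3G61198: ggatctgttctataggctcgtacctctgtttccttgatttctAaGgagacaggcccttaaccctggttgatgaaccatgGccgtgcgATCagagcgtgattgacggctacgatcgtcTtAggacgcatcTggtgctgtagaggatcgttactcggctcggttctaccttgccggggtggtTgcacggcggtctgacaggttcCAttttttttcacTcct
U3D: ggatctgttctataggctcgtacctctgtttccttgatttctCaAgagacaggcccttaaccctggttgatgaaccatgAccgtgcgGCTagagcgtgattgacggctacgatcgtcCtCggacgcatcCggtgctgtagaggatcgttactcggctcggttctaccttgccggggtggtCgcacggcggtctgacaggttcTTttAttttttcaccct

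AT3G61198 stood at 216, 12 and 88.3 CPM in wild-type libraries 1, 2 and 3 and at 43.7, 13.9 and 18.2 CPM in the mutant libraries. AT4G00975 stood at 22.3, 5.46 and 19.5 CPM and at 8.44, 4.81 and 5.42 CPM. In both genes wild-type libraries 1 and 3 exceeded wild-type library 2. That library was the lowest of the 6 for AT3G61198 and lay within the mutant range for AT4G00975, so the groups overlapped. The log2 fold changes were -2.07 ± 0.65 and -1.41 ± 0.34 (SE), with edgeR adjusted p-values of 0.118 and 0.0744. Without wild-type library 2 both were called (-2.56 and -1.67; edgeR adjusted p = 0.0447 and 0.0338), and without wild-type library 1 AT3G61198 was at -1.10 (edgeR adjusted p = 0.22).

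The upstream regions of AT1G15405, AT3G61198 and AT4G00975 share letters that the choice of members did not use. Small nuclear RNA, U3 and 7SL genes of plants are known for an upstream sequence element (USE) followed by a TATA box. In windows of 300 bases, from 250 before to 50 after the annotated start, the USE core CCCACATCG on either strand was found in exactly these 3 of the 135 members (2.22%). It was found in 0.282% of 37899 reference genes and in 36.6% of 82 snRNA genes. In all 3 it began 76, 82 and 53 bases before the start, on the gene's strand, and TATATA followed after 26 bases. The core with TATATA 20 to 40 bases later, on the gene's strand, was found in 0.0871% of reference genes. The regions run from 20 bases before the core to the base before the start, with the core and TATATA in capitals, at chr1:5298167-5298262 (minus), chr3:22656600-22656701 (minus) and chr4:421900-421972 (plus) of TAIR10.1.
AT1G15405 upstream: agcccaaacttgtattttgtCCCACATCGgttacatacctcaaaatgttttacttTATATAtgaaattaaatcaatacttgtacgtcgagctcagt
AT3G61198 upstream: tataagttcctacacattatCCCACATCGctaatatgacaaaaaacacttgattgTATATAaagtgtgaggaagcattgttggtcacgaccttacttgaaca
AT4G00975 upstream: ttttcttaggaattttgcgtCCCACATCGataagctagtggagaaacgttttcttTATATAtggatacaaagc

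Among the genomic copies of AT1G15405, the stretch inside AT2G31141 had the core 76 bases and the AT7SL-1 stretch 83 bases before its first matched base, each with TATATA after 26 bases. Copies without a row in the table differed. Those at AT5G09730, AT4G04595 and AT4G04565 had the core 77, 76 and 76 bases before, with TATATA after 27, 26 and 26 bases. The closest copy on chromosome 5 and the one at AT5G09700 had no core within 250 bases. The core, its variants CCCACATC (4 members, 0.675% of reference genes) and TCCCACAT (4 members, 1.08%), the telo box AAACCCTA and GGCCCA were all searched after the values of these genes had been seen. The variants overlap the core. GGCCCA was found in 32 members (23.7%) and in 13.0% of reference genes.

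The 10 members that contain snoRNA genes overlap 23 of them on the same strand, 64 to 200 nt long. Of the 23, 0 have a row of their own in the table. AT2G46192 (chr2:18973307-18974133, plus) overlaps 5, among them snoR145, snoR159 and snoR157, which begins before the start of AT2G46192. AT5G06165 (chr5:1867197-1868244, minus) holds snoR120 and snoR133, and AT2G43375 (chr2:18017116-18018691, minus) holds snoR152a and snoR152b. AT3G55485 holds snoR125 and AT1G15002 holds AtsnoR92. The letters TGATGA followed later by CTGA, which are those of box C and box D, occur in 34.8% of the 23 and in 47.7% of 287 annotated snoRNA genes, here on the gene's strand only. In AT5G06165, the second most abundant member, snoR120 has CTGA without TGATGA and snoR133 has both. snoR133 is shown with these letters in capitals (chr5:1867740-1867831, minus strand, TAIR10.1).
snoR133: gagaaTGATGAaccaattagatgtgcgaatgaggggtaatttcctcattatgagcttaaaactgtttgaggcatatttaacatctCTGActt

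AT5G06165 stood at 1340, 345 and 701 CPM in wild-type libraries 1, 2 and 3 and at 295, 230 and 290 CPM in the mutant libraries. Every mutant library was below every wild-type library, although wild-type library 2 came close. The log2 fold change was -1.56 ± 0.38 (SE, edgeR adjusted p = 0.0744), and DESeq2 gave an adjusted p of 0.00136. It was -1.93 without wild-type library 2 (edgeR adjusted p = 0.0305) and -0.95 without wild-type library 1 (edgeR adjusted p = 0.0514). AT2G46192 stood at 139, 57.9 and 94.2 CPM against 50.3, 33.2 and 38.0 CPM, again without overlap. Its log2 fold change of -1.28 ± 0.28 (SE) had the smallest edgeR adjusted p of the 93 members, 0.0653. That value fell under the threshold when wild-type library 1 (0.042) or 2 (0.0338) was left out, rose to 0.326 when mutant library 1 was, and was 0.00237 in DESeq2.

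AT2G43375 stood at 31.6, 13.1 and 24.1 CPM against 14.1, 8.17 and 9.89 CPM, with wild-type library 2 inside the mutant range (log2 fold change -1.13 ± 0.28, SE; edgeR adjusted p = 0.0752; DESeq2 adjusted p = 0.0413). AT1G15002 stood at 54.5, 5.46 and 23.1 CPM against 15, 4.08 and 5.10 CPM (log2 fold change -1.75 ± 0.54, SE; edgeR adjusted p = 0.111). It was -0.87 without wild-type library 1 (edgeR adjusted p = 0.332) and -2.73 without mutant library 1 (edgeR adjusted p = 0.326). AT3G55485 stood at 76.4, 5.46 and 13.0 CPM against 12.6, 3.84 and 6.06 CPM. Its log2 fold change of -2.08 ± 0.64 (SE, edgeR adjusted p = 0.113), the lowest of all members, rested on wild-type library 1, without which it was -0.32 (edgeR adjusted p = 0.748). AT1G18745, with 4 snoRNA genes, and AT1G20691, with 1, were lower in every mutant library (log2 fold changes -0.91 and -0.67; edgeR adjusted p = 0.0904 and 0.271). AT1G16635 overlapped between groups (-0.49, edgeR adjusted p = 0.48). AT3G02832 and AT5G15022 were not tested and had 97 and 79 reads in all.

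All 11 tested small-RNA loci thus had lower values in atrx-1 (median -1.41 on the log2 scale). Of these, 9 had an unadjusted p under 0.05, where 10.9% of all features were lower at that p. Of the 24 tested snRNA and snoRNA features, all 24 also had lower values (median -1.10). Within the wild type these loci were uneven: 8 of the 11 were at least 2-fold higher in library 1 than in library 2 (median ratio 3.89), against 22.2% of the other 82 tested members and 13.5% of tested nuclear features. The telo box AAACCCTA, an element found near the start of many plant ribosomal protein and snoRNA genes, was present on either strand in 6 of the 10 snoRNA-containing members. It was present in 6.18% of reference genes, 27.5% of annotated snoRNA genes and 7.38% of the 122 members outside the small-RNA loci.

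**Figure D2:**
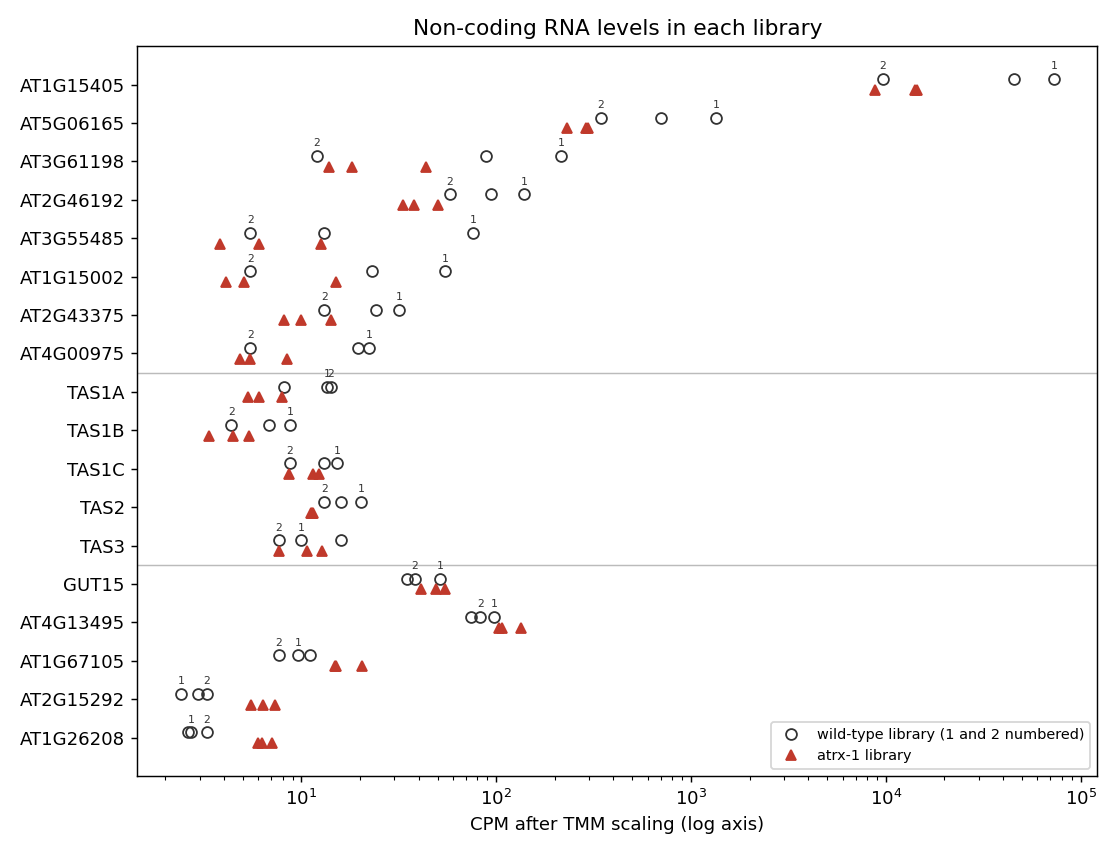
CPM (log axis) of 18 non-coding RNA genes in each library, with wild-type libraries as open circles, of which 1 and 2 are numbered, and atrx-1 libraries as red triangles. The upper block holds part of the small-RNA loci, the middle block TAS precursors and the lower block other genes. AT1G18745, AT1G20691, AT1G16635, AT3G02832 and AT5G15022, also small-RNA loci, are not shown. Of these AT1G16635, AT3G02832 and AT5G15022 were not highest in wild-type library 1. In the upper block wild-type library 1 lies at the right and library 2 next to or among the mutant libraries, and AT1G67105, AT2G15292 and AT1G26208 have every mutant library to the right of the wild type.

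The ta-siRNA precursors were low but measured in every library. TAS1A, TAS1B, TAS1C and TAS2 are cut at a site paired with miR173, and TAS3 is bound by miR390. The microRNAs and sites are shown because they define how these RNAs are processed. In the microRNAs (RefSeq, chr3:8236161-8236182 and chr2:16061971-16061991, plus strand) capitals mark bases 2 to 8, the seed. In the sites, found as the best ungapped match in each gene, capitals mark bases that pair with the microRNA. The miR173 sites pair at 20 of 22 bases in TAS1A, TAS1C and TAS2 and at 19 in TAS1B, and the TAS3 site with miR390 at 16 of 21. Another stretch of TAS3 pairs as well at that number of bases, so its place is not unique. The sites lie on the minus strand at chr2:11722081-11722102 (TAS1A), chr1:18549660-18549681 (TAS1B), chr2:16537890-16537911 (TAS1C) and chr2:16539991-16540012 (TAS2), and on the plus strand at chr3:5862099-5862119 (TAS3).
miR173: tTCGCTTGcagagagaaatcac
miR390: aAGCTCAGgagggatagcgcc
TAS1A site: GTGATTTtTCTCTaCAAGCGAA
TAS1B site: GTGATTTtTCTCaaCAAGCGAA
TAS1C site: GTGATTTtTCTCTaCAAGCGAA
TAS2 site: GTGATTTtTCTCTcCAAGCGAA
TAS3 site: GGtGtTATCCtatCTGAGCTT

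TAS1A stood at 13.5, 14.2 and 8.14 CPM in the wild-type libraries and at 6.04, 5.29 and 7.97 CPM in the mutant libraries. TAS2 stood at 20.2, 13.1 and 16.0 CPM against 11.3, 11.5 and 11.2 CPM. In both genes every mutant library was below every wild-type library, though by little for the nearest pair. Their log2 fold changes were -0.87 ± 0.28 and -0.59 ± 0.21 (SE), with edgeR adjusted p-values of 0.124 and 0.155. TAS1B (8.73, 4.37 and 6.84 CPM against 5.35, 3.36 and 4.47 CPM) had a log2 fold change of -0.65 ± 0.31 (SE, edgeR adjusted p = 0.271). TAS1C was at -0.27 ± 0.24 and TAS3 at -0.18 ± 0.28 (SE, edgeR adjusted p = 0.571 and 0.773), with groups that overlapped. All 5 thus had lower values, 2 of them at an unadjusted p under 0.05, where 10.9% of all features were lower at that p. With the length trend removed 0 of the 5 were under it. TAS1A was then at -0.60 and TAS2 at -0.38 (edgeR unadjusted p = 0.0537 and 0.0904) and TAS3 at 0.20. Their summed share of nuclear counts was 0.0149%, 0.0118% and 0.0135% in the wild type and 0.0116%, 0.0118% and 0.0103% in the mutant (p = 0.1, the smallest that the exact permutation test can give here). TAS4 had 12 reads and TAS3B 1 read in all, below the limit of 50.

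Of 11 genes of the machinery 10 were tested, 9 with higher and 1 with lower values, and 0 were called by edgeR in either direction. AGO1, the main Argonaute that miR173 is loaded into, averaged 28.8 ± 8.27 CPM over wild-type and 46.2 ± 1.93 CPM over atrx-1 libraries (SD, n = 3). Its log2 fold change was 0.65 ± 0.21 (SE, edgeR adjusted p = 0.127). RDR6, which makes the double strand, was at 0.27 ± 0.24, DCL4, which dices it, at 0.48 ± 0.25, and SDE5 at -0.63 ± 0.33 on the log2 scale (SE). AGO7, the partner of miR390, was too low to be tested. Among the targets, the auxin response factors ARF2 and ARF4 had log2 fold changes of 0.50 ± 0.20 and 0.57 ± 0.24 and ARF3 of -0.13 ± 0.28 (SE, edgeR adjusted p = 0.193, 0.215 and 0.844). The anthocyanin regulators PAP1 and PAP2, targets of TAS4 small RNAs, were not tested. With the length trend removed 6 machinery genes were higher and 4 lower (median 0.05). Of 13 genes of RNA surveillance and decay, which remove many non-coding transcripts, 11 had higher and 2 lower values and 0 were called. The median was 0.37, and 0.01 with the length trend removed. UPF1, the helicase of nonsense-mediated decay, was at 0.70 ± 0.19 and HEN2, a nuclear exosome helicase, at 0.84 ± 0.30 (SE, edgeR adjusted p = 0.0872 and 0.157).

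AT4G13495 (chr4:7842967-7846774, plus strand) has the third most reads of the members and carries MIR5026, MIR850 and MIR863. Wild-type libraries held 97.2, 83.0 and 74.0 CPM and atrx-1 libraries 107, 103 and 134 CPM. Every mutant library was above every wild-type library by a small margin. The log2 fold change was 0.43 ± 0.20 (SE, edgeR adjusted p = 0.265), and 0.51 with an adjusted p of 0.0447 in the authors' deposited table. The MIR850 row of the table, on the same strand, was at 0.21 (edgeR unadjusted p = 0.509).

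GUT15 (AT2G18440), a long-known non-coding RNA with a rapidly turned-over transcript, stood at 51.5, 38.2 and 34.9 CPM against 54.4, 41.1 and 48.8 CPM. The groups overlapped, and the log2 fold change was 0.20 ± 0.21 (SE, edgeR adjusted p = 0.635). AT1G67105 stood at 9.63, 7.65 and 11.1 CPM against 14.8, 15.1 and 20.4 CPM, higher in every mutant library (0.74 ± 0.23, SE; edgeR adjusted p = 0.121). AT1G79075 went the other way, from 10.2, 6.56 and 9.45 CPM to 5.49, 3.60 and 3.83 CPM (-1.01 ± 0.28, SE; edgeR adjusted p = 0.0937). IPS1 and AT4, phosphate starvation RNAs that act without a protein, are classed as protein-coding in the table and so are not members. AT4 stood at 240, 87.4 and 104 CPM against 68.4, 63.7 and 253 CPM, with groups that overlapped widely, and neither was called (edgeR adjusted p = 0.875 for AT4 and 0.819 for IPS1). None of the 4 phosphate response genes PHO2, PHR1, SPX1 and SPX3 was called by edgeR, and 0 of them had an unadjusted p under 0.05.

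The 68 antisense genes were mostly low. Of these 40 were tested, 22 with higher and 18 with lower values, and the median log2 fold change was 0.05. At an unadjusted p under 0.05, 3 of the 40 were higher and 5 lower, where 8.64% and 10.9% of all features were. The highest value was in AT1G44125 (chr1:16780606-16786764, minus; antisense to AT1G44120), with 1.81, 3.28 and 1.95 CPM in wild-type and 3.29, 6.25 and 6.70 CPM in atrx-1 libraries. It had 6, 3 and 6 reads against 48, 26 and 21, and the nearest libraries of the 2 groups almost met (log2 fold change 1.23 ± 0.45, SE; edgeR adjusted p = 0.162). AT1G26208 (chr1:9066636-9069238, minus) runs across SOFL1, a regulator of cytokinin levels. It stood at 2.71, 3.28 and 2.61 CPM against 6.25, 6.01 and 7.02 CPM, clearly apart, from 9, 3 and 8 reads against 91, 25 and 22 (1.20 ± 0.31, SE; edgeR adjusted p = 0.0817). Both AT1G44125 and AT1G26208 passed the filter through the mutant libraries, the group in which they are high. SOFL1 itself was at -0.48 (edgeR unadjusted p = 0.122).

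At the other end, AT3G59068 (chr3:21832343-21832701, plus) stood at 257, 30.6 and 206 CPM in wild-type and 44.5, 31.2 and 59.0 CPM in atrx-1 libraries. Wild-type library 2 was the lowest of the 6. Its log2 fold change was -1.91 ± 0.51 (SE, edgeR adjusted p = 0.0856, and 0.0305 without wild-type library 2). It was -1.10 with the length trend removed (edgeR unadjusted p = 0.0276), while the opposite gene AT3G59070 had 1 read. AT5G18255 stood at 120, 7.65 and 48.2 CPM against 27.6, 11.1 and 16.3 CPM (-1.73 ± 0.56, SE; edgeR adjusted p = 0.125). It was called without wild-type library 2 (edgeR adjusted p = 0.0491) and was at -0.81 without wild-type library 1 (edgeR adjusted p = 0.29). These antisense genes thus had the library pattern of most tested small-RNA loci. They did not match an annotated snRNA or snoRNA gene or AT7SL-1 at 80% identity over 60 bases, and other kinds of small RNA were not searched. AT2G26355 (-1.03 ± 0.28, SE; edgeR adjusted p = 0.0856) and AT1G13448, antisense to the transcription factor gene GT-1 (-0.95 ± 0.38, SE; edgeR adjusted p = 0.197), were lower in every mutant library.

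In the table's own coordinates 54 members overlapped a protein-coding gene on the opposite strand, in 55 pairs, and in 39 pairs the non-coding row had more reads. Both partners were tested in 13 pairs. Their log2 fold changes had the same sign in 6 of 13, with Pearson's r of -0.21 and Spearman's rho of -0.242 across pairs that share the same 6 libraries. ECT5, an RNA-binding protein gene, was at 0.67 (edgeR unadjusted p = 0.0281) while AT3G13061 across it was at -0.06. The sources used here do not say whether counting used strand, and without it reads of the partners cannot be told apart. AT1G05562, AT1G23052, AT3G13061 and AT4G28652 lie wholly within exons of the opposite gene in the TAIR10.1 annotation and had 121 to 273 reads each.

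**Figure D3:**
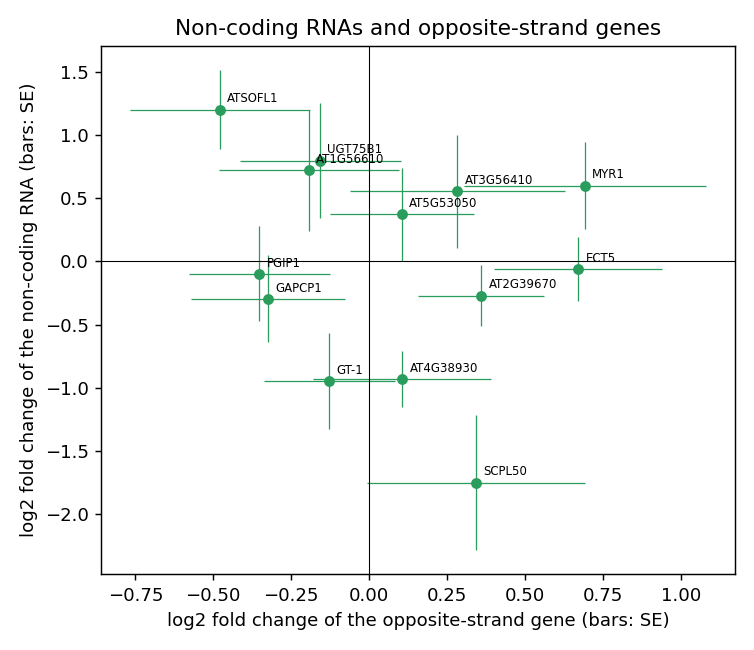
Log2 fold change of the opposite-strand protein-coding gene (horizontal) and of the non-coding RNA (vertical) for the 13 pairs with both tested, with SE bars and the protein-coding gene's name. Points fall in all 4 quadrants, with 6 of 13 pairs of the same sign.

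Of the 43 genes with no overlap in the reference annotation, 35 were tested, 8 with higher and 27 with lower values (median log2 fold change -0.39). At an unadjusted p under 0.05, 3 were higher and 11 lower (8.57% and 31.4%), where 8.64% and 10.9% of all features were. With the length trend removed the balance was closer, with 15 higher and 20 lower (median -0.15). At an unadjusted p under 0.05, 7 were then higher and 3 lower, where 4.7% and 6.25% of all features were. AT2G15292 (chr2:6644281-6645533, minus) stood at 2.41, 3.28 and 2.93 CPM against 6.38, 5.53 and 7.34 CPM, clearly apart (1.20 ± 0.32, SE; edgeR adjusted p = 0.085). It had 8, 3 and 9 reads against 93, 23 and 23, and it passed the filter through its mutant libraries. AT5G03285, tested only because its mutant libraries passed the filter, had 9, 1 and 5 reads against 50, 15 and 12 (0.80 ± 0.39 SE, edgeR adjusted p = 0.276). AT4G38932 (chr4:18151687-18152569, minus; in the table's coordinates it meets AT4G38930 on the other strand) stood at 65.3, 39.3 and 41.4 CPM against 23.7, 29.8 and 24.9 CPM. It was lower in every mutant library, with a log2 fold change of -0.93 ± 0.22 (SE, edgeR adjusted p = 0.0737, DESeq2 adjusted p = 0.0261). AT1G10682 was also lower in every mutant library, at 20.6, 16.6 and 14.7 CPM against at least 24.0 CPM in the wild type (-0.84 ± 0.22, SE; edgeR adjusted p = 0.0841), and it was at -0.22 with the length trend removed (edgeR unadjusted p = 0.264). AT1G58590 was at -1.29 ± 0.38 and AT5G07322, whose wild-type library 2 had 1 read, at -1.92 ± 0.51 (SE, edgeR adjusted p = 0.102 and 0.085). AT5G07322 was at -1.03 without wild-type library 1 (edgeR adjusted p = 0.287).

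None of the 3 most abundant free-standing genes was called. AT2G14878 stood at 87.9, 50.3 and 48.2 CPM against 35.7, 35.6 and 47.8 CPM (-0.68 ± 0.25, SE; edgeR adjusted p = 0.165). AT4G36648 stood at 75.2, 54.6 and 58.6 CPM against 48.5, 44.0 and 53.3 CPM (-0.39 ± 0.19, SE; edgeR adjusted p = 0.294). In both the mutant libraries were lower by a narrow margin at the nearest pair. AT1G69252 stood at 45.4, 49.2 and 65.8 CPM against 64.3, 63.9 and 58.0 CPM and overlapped (0.21 ± 0.20, SE; edgeR adjusted p = 0.601).

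Levels per length spanned a wide range. In the authors' deposited signal per kb, the wild-type mean was 556000 for AT1G15405, 3300 for AT5G06165 and 1750 for AT3G59068. It was 646 for AT3G61198, 447 for AT2G46192 and 375 for AT4G13495. GUT15 had 125 and TAS2 60.4, and AT1G44125 had 1.73. Most members lie at the low end: the median member had 109 reads over the 6 libraries and 59 had fewer than 100.

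Gene length moved with genotype in these libraries, and the members are short, with a median of 883 nt against 1464 nt for nuclear protein-coding genes. Spearman's rho between length and log2 fold change was 0.379 over the 93 tested members and 0.575 over tested nuclear features. These are correlations across genes of the same 6 libraries. The 47 members in the middle of the length range, 595.5 to 1264.5 nt, had a median log2 fold change of -0.27, and 4098 other nuclear features of that length had -0.28. After removal of the length trend from every library, the median of the 93 moved from -0.29 to 0.029, and 12 members had higher and 15 lower values at an unadjusted p under 0.05, where 4.7% and 6.25% of all features did so.

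With the trend removed, all 11 tested small-RNA loci still had lower values (median -1.04), 9 with an unadjusted p under 0.05, against 6.25% of all features lower at that p. Of the 24 snRNA and snoRNA features 14 were lower and 10 higher (median -0.17) in this setting. Among these 9, AT2G43375 was then at -1.17, AT5G06165 at -1.28 and AT3G61198 at -1.53. AT1G15405 was not among them, at -0.89 where it had been -1.77 (edgeR unadjusted p = 0.0725). Outside this group the median of the 82 tested members went from -0.18 to 0.20. The antisense genes went from 0.05 to 0.30, with 29 of 40 higher. AT1G67105 was at 1.10 on the log2 scale. AT1G26208 was at 1.43, AT2G15292 at 1.33 and AT5G03285 at 1.63, all of which passed the filter only through the mutant libraries. In this setting 0 members were called by edgeR over all features. With offsets fitted on length alone, the removal also assumes that members follow the trend of other nuclear genes. For loci that contain snoRNA genes the offset used the length of the whole gene, not the 64 to 200 nt of the snoRNAs inside. The small-RNA loci (median 827 nt) and the snRNA and snoRNA features (median 86 nt) were thus corrected at unlike lengths. Which part of a locus its reads came from was not tested.

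**Figure D4:**
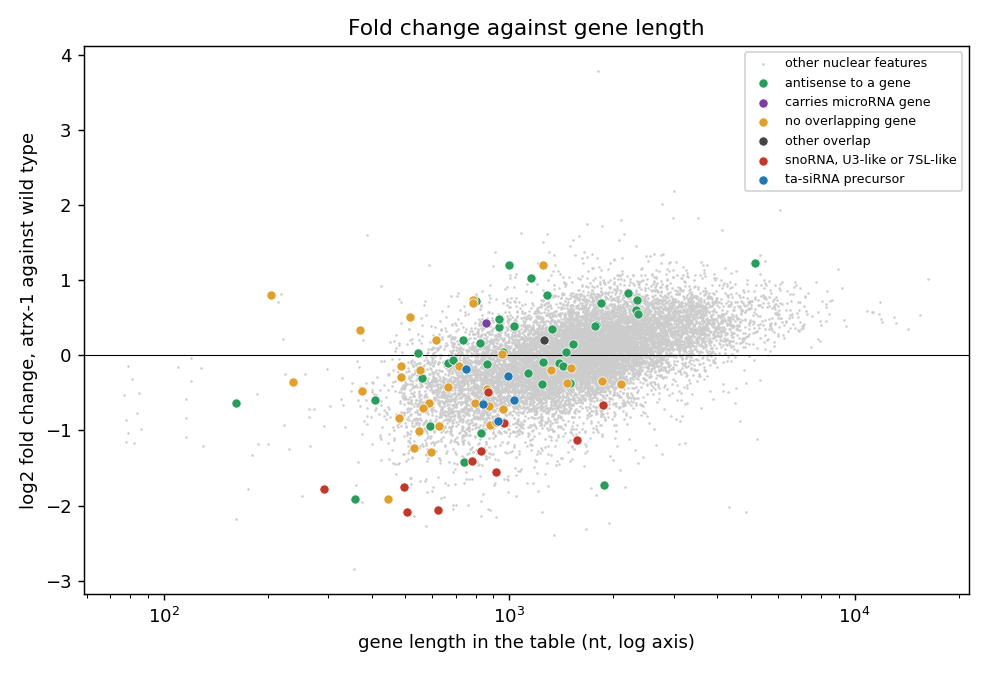
Log2 fold change, atrx-1 against wild type, against gene length in nt (log axis) for 93 tested non-coding RNA genes, coloured by kind, over other tested nuclear features in grey. Grey points tend to be higher at greater length. The tested small-RNA loci (red) lie between -2.08 and -0.49, and other nuclear features of 595.5 to 1264.5 nt reach down to -2.16.

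**Figure D5:**
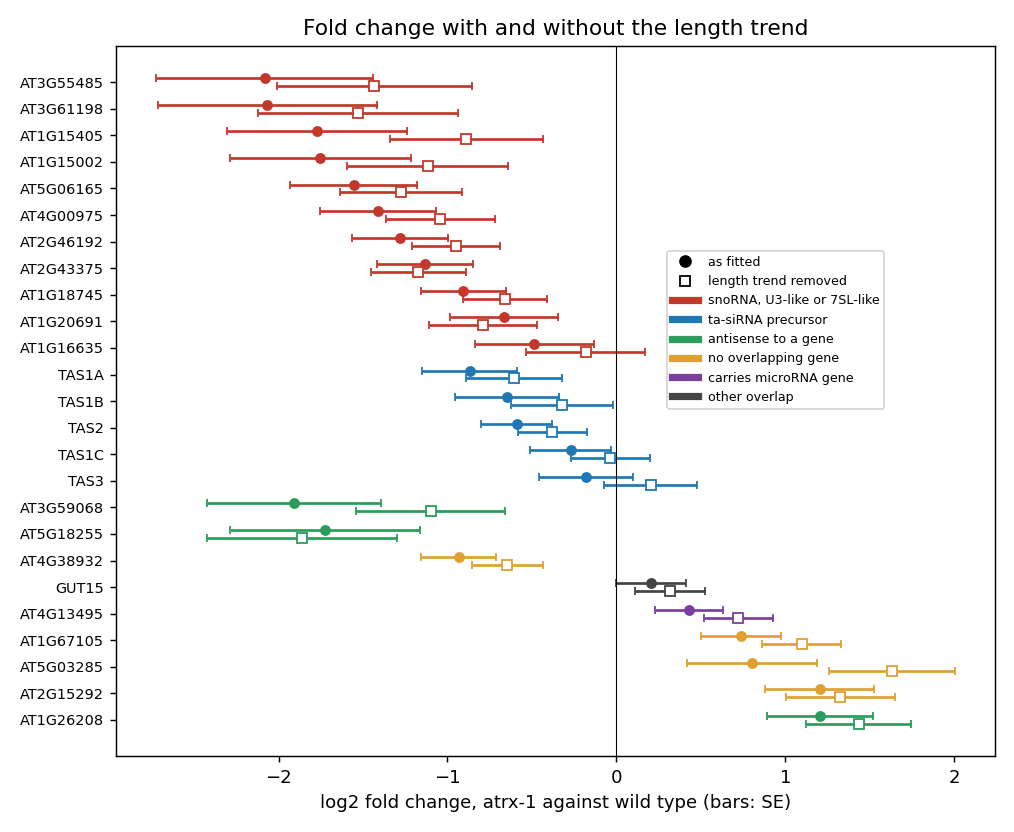
Log2 fold change with SE bars of 25 non-coding RNA genes as fitted (filled circles) and with the length trend removed (open squares), coloured by kind. The 11 small-RNA loci stay below 0 in both, and TAS3 crosses 0, from -0.18 to 0.20.

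The limit of 50 reads fell among genes of like values. Just inside it lay AT1G17255, AT5G09443 and AT1G67792, each with 50 reads, and just outside AT2G35945, AT3G46668 and AT5G45472 with 49, 48 and 47. Mutant library 1 alone held a median of 47.3% of a member's reads, as it held 48.2% of nuclear counts, so that library weighed more in the limit than any other. Of all ncRNA rows 39.6% reached 50 reads, against 68.3% of nuclear protein-coding, 35.8% of snoRNA and 15.7% of transposable element rows. The 42 members that were not tested had 50 to 97 reads, and by mean CPM 21 were higher and 21 lower in the mutant. They were 28 antisense genes, 8 without overlap, 3 with another overlap, 2 small-RNA loci and AT4G39838, which carries a microRNA gene.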

How the data were processed

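Per the file headers, the authors deposited raw read counts per gene for 6 libraries, a normalized signal per library, the same signal divided by length in kb, and the results of their own test as log2 fold changes with p-values. Counts were the input of every test here, lengths came from the ratio of both signals, and the log2 fold changes and p-values that the authors deposited are quoted only where named. Per the submitters' processing notes, the tools were DESeq2 1.6.3, DESeq, HTSeq 0.6.1, Bowtie2 2.1.0, TopHat2 2.0.14 and CASAVA 1.8.2, and the build TAIR10. The sources used here give neither annotation version nor strand setting.

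Differential expression was tested over all features with edgeR 4.0.16 in R 4.3.3: filterByExpr at its defaults (a count of 10 and a total of 15), TMM scaling, and the quasi-likelihood test (glmQLFit, glmQLFTest) of genotype without covariates. P-values were adjusted by Benjamini-Hochberg, with a threshold of 0.05. CPM use TMM-scaled library sizes. SE derives from the F statistic, and the common biological coefficient of variation was 19.3%. The procedure was tested on simulated counts. Shares of counts were compared by exact two-sided permutation tests.

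Coordinates of genes are those of the table. All 135 members matched a TAIR10.1 locus tag, and 71 had identical start and end there. Sequences and upstream windows were read from the RefSeq genome TAIR10.1. Similarity to annotated snRNA and snoRNA genes and AT7SL-1 was found with blastn 2.17.0 (at least 80% identity over 60 bases). The length trend was removed with offsets from a lowess curve (span 0.3) of each library's deviation on log2 length. DESeq2 1.42.0, RLE size factors, nuclear features only, other filters, a replicate block and leaving out each library were the other alternatives.

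Named genes were the 10 most abundant, the listed TAS and long non-coding RNAs, those called under any alternative, and the 6 highest and 6 lowest log2 fold changes among tested genes with at least 2 CPM whose groups did not overlap, with 3 on each side of the read limit. Members outside this rule, and the remaining small-RNA loci, were named after their values were seen. The members and lists were chosen with earlier results of these data known.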

Additional observations from a re-analysis of the deposited data

How the results depend on the processing

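Members called by edgeR numbered 0. They numbered 14 without a filter on low counts (all lower, of 135 tested, where 1.74% of all features were called lower), 4 in DESeq2, 3 with the replicate number as a block (0.246% of all features), and 0 to 7 when 1 library was left out, with 7 without wild-type library 2 and 1 without wild-type library 1. RLE size factors, nuclear features only, the stricter filter (mean of at least 5 CPM, 50 members tested) and the length-trend removal each gave 0. The calls over all features, 16, moved further: 220 in DESeq2, 592 without a filter, 38 with RLE size factors, 1 with the stricter filter, 34 with the replicate block, 2 with the length trend removed, and 0 to 378 when 1 library was left out. The cause was not tested. Deviations of same-numbered libraries correlated by r = 0.064, 0.057 and -0.079, so no pairing by number was seen. With so few libraries that cannot exclude a shared batch. The block called AT3G55485, AT2G46192 and AT1G15002.

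The median log2 fold change of the tested members moved from -0.29 to 0.029 with the length trend removed and stayed between -0.46 and -0.17 in the other alternatives. TAS3 changed direction, from -0.18 to 0.20 with the length trend removed and to 0.17 without wild-type library 3, the highest value when 1 library was left out, where the lowest was -0.37. The share difference of all members, -6.49 percentage points, was -0.181 without AT1G15405, and between -10.2 and -3.12 when 1 library was left out. That of the TAS precursors lay between -0.00296 and -0.00143. In all 13 alternatives every tested small-RNA locus had a lower value. Depth was limiting for part of the members: wild-type library 2 had 0 reads for 11 of them, and 42 were below the filter on low counts.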
